A study of Mus musculus with 6 samples.

Results

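Collagen genes were followed in RNA of whole mouse lungs seeded with tumour cells. A gene was taken as a member when its symbol was Col, a type number, the letter a and a chain number, and when its counts summed to at least 60 over the 6 libraries. The rule used no difference between groups. It kept 36 of 44 collagen genes with a row, out of 35275 gene rows in all, of which 15162 reached the same sum. The members were 10 fibrillar chains, 9 basement membrane chains (types IV, VII, XV and XVIII), 6 microfibrillar chains (type VI) and 11 others.

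Balb/c mice had received 250000 cells of the 4T1 line, derived from a mammary tumour of the same strain, by the lateral tail vein. The cells were unmodified (4T1 WT, 3 libraries) or lacked PD-L1 (4T1 PD-L1 KO, 3 libraries). Both groups of lungs were perfused with 20 mL of PBS and taken after 7 days. The comparison asks how lung RNA differs with PD-L1 on the injected tumour cells, and the series title adds myeloid PD-1, cytotoxic T cells and type I interferon. KO refers to the injected cells throughout, and no label gives the host mice as edited. Age and sex of the mice, the number of mice per library, and whether the KO cells were 1 clone are not stated in the labels. Tumour load, and any difference between the injected cells beyond PD-L1, cannot be told apart from the loss of PD-L1.

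Collagens are secreted proteins whose chains wind around each other in a helix and then assemble outside the cell. Fibrillar collagens give the airway wall, vessel wall and alveolar septum their tensile strength, and are made mainly by fibroblasts and smooth muscle cells. Type IV chains form the sheet-like network of the basement membrane that the alveolar epithelium and capillary endothelium share, and type VI chains form beaded microfibrils at the border between that membrane and the fibres.

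Total counts per library ran from 14711459 to 16932114 and genes detected from 17520 to 19156, so a count of 0 allows up to 0.177 to 0.204 CPM (counts scaled to 1000000 per library) in a library at 3 counts. Cd274, which encodes PD-L1, checks the labels only in part, since host cells also express it. It had 910, 912 and 1132 counts in WT and 1514, 3013 and 4929 in KO lungs, so the KO libraries were the higher ones (log2 difference 1.65 ± 0.42 SE, edgeR adjusted p = 0.161). Ager, a marker of the alveolar type 1 cell, stood at 1619 to 2036 CPM in WT and 1701 to 2019 CPM in KO lungs. Over all 15191 genes tested, edgeR's quasi-likelihood test with Benjamini-Hochberg adjustment called 170 higher and 51 lower in KO. Without KO replicate 1 these were 404 and 174, without WT replicate 1 28 and 5, without WT replicate 2 22 and 2, without KO replicate 2 23 and 2, and without KO replicate 3 36 and 4.

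The chains sit in the genome partly as neighbours (GRCm38). Col4a1 (chromosome 8, 11198423 to 11312826, minus strand) and Col4a2 (11312805 to 11449287, plus strand) point away from each other, with starts 21 bases apart. Col4a3 and Col4a4 on chromosome 1 have the same arrangement with starts 72 bases apart, and Col4a5 and Col4a6 on chromosome X with starts 1309 bases apart. Col3a1 (chromosome 1, 45311538 to 45349706) and Col5a2 (45374321 to 45503282) lie tail to tail, with 24614 bases between them. Col6a1 and Col6a2 lie on chromosome 10 on the same strand, 85161 bases apart, whereas Col6a3 stands alone on chromosome 1 (90765923 to 90843971, minus strand).

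Promoters are shown for 3 members that represent the letters found: Col6a3, with the smallest p of all members, Col5a1, with the smallest p of the fibrillar chains, and Col3a1, the fibrillar chain with the highest level. Each is the 250 bases before the start in RefSeq (GRCm38.p6), 5′ to 3′ on the strand of the gene. Capitals mark the GC box GGGCGG on either strand, the CCAAT box or the TATA box TATAAA. The windows are chr1:90843972-90844221 (minus) for Col6a3, chr2:27886175-27886424 (plus) for Col5a1 and chr1:45311288-45311537 (plus) for Col3a1.
Col6a3: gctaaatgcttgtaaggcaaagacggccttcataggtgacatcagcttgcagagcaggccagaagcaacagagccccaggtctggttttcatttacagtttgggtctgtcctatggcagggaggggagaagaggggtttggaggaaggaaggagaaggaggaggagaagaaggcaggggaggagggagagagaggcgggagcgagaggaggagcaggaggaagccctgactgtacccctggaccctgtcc
Col5a1: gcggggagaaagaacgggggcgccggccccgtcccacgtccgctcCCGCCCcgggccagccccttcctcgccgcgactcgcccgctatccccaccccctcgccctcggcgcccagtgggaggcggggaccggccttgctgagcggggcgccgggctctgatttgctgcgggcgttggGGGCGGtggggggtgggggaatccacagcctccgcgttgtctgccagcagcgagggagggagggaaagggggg
Col3a1: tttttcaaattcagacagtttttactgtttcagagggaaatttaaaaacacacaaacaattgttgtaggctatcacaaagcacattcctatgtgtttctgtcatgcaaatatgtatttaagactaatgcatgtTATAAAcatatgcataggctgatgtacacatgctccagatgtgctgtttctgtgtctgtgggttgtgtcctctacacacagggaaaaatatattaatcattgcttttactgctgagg
The Col6a3 stretch held none of the boxes, that of Col5a1 held 2 GC boxes, and that of Col3a1 held 1 TATA box. RefSeq windows from 250 bases before to 50 after a start were matched for 29 of 36 members (31 windows), searched on both strands. A GC box lay in 64.5% of the collagen windows and in 35.7% of all 32851 windows, CCAAT in 32.3% and 37.4%, and TATAAA in 12.9% and 13.6%. The interferon-stimulated response element core lay in 0 of 31 collagen windows and in 3.44% of all. The gamma-activated site core TTCNNNGAA lay in 6.45% (Col28a1 and Col6a5) and in 8.3% of all. A match is only a run of letters in the window. The 7 members without a matched window were Col1a1, Col2a1, Col4a3, Col5a2, Col9a3, Col12a1 and Col14a1.

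Type IV collagen was the main collagen message of these lungs. Length was taken as the union of all annotated exons of a gene, so the order below depends on the annotated transcripts. Per length of exon, in CPM per kilobase (RPKM), Col4a1 ranked first at 335.2 ± 10.1 in WT and 293.3 ± 10.4 in KO lungs (SD, n = 3 each). Its partner Col4a2 followed with a mean of 237.9 RPKM over the 6 libraries. Next in order were Col3a1 (117.3 RPKM), Col6a1 (91.4 RPKM), Col1a1 (74.4 RPKM), Col1a2 (69.1 RPKM), Col6a2 (41.3 RPKM), Col13a1 (37.0 RPKM), Col6a3 (30.6 RPKM) and Col4a3 (29.9 RPKM). The neighbours Col1a1 and Col1a2 lay within the SD of the former in KO lungs, 10.3 RPKM. Of all reads on members, 24.8% came from Col4a1, 41.5% from Col4a1 and Col4a2, and 84.9% from the 10 genes with the most counts.

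The family as a whole took a smaller share of the counts in KO lungs. Members held 1.04%, 0.985% and 1.03% of all counts in the WT libraries, in order of replicate, and 0.844%, 0.851% and 0.914% in the KO libraries. Every KO library was below every WT library, at a ratio of means of 0.855. The exact two-sided permutation test gave p = 0.1, the smallest that 3 libraries against 3 allow, and 0.125 after Benjamini-Hochberg adjustment over the 5 shares computed (all members and 4 classes). The type VI share was 0.126 ± 0.00607% in WT and 0.0975 ± 0.00219% in KO (ratio 0.776). Basement membrane chains held 0.510 ± 0.0117% and 0.445 ± 0.0222% (ratio 0.873), and the other chains 0.0680 ± 0.00254% and 0.0607 ± 0.00468% (ratio 0.893). Each of those 3 classes was lower in every KO library, with the same exact p = 0.1. Fibrillar chains held 0.313 ± 0.0250% and 0.266 ± 0.0434% (ratio 0.850), and there the groups overlapped (exact permutation p = 0.2). In bulk samples, fewer cells of a type and less RNA per cell cannot be told apart.

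**Figure D1:**
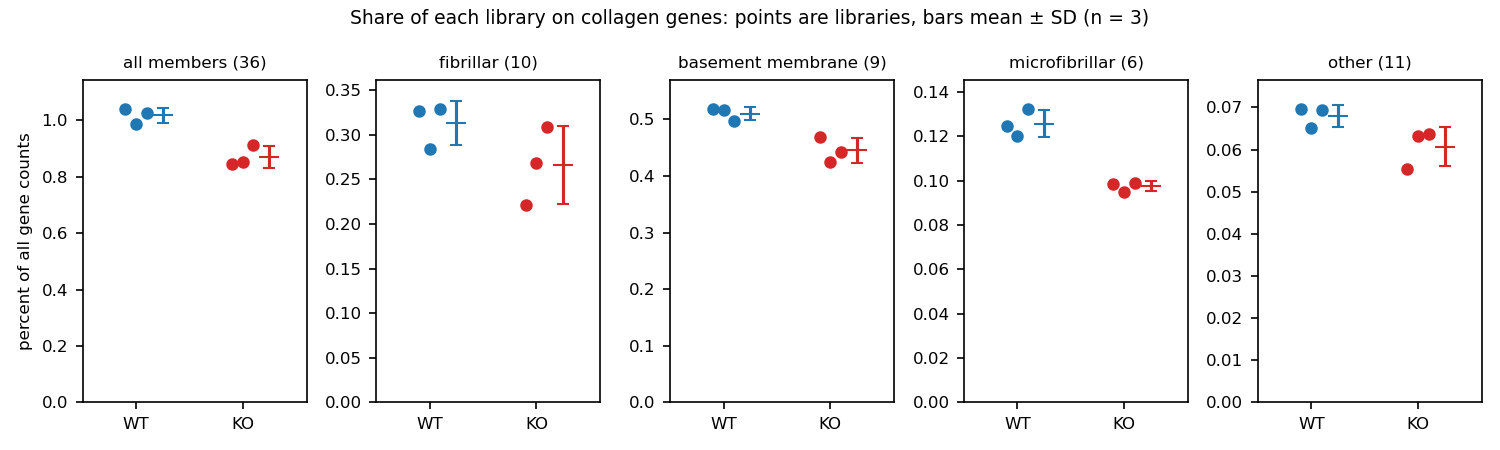
Share of each library's counts on collagen members, in percent, for all members and each class. Points are libraries and bars are group means with SD (n = 3). The 3 KO points lie below the 3 WT points for all members (0.844 to 0.914% against 0.985 to 1.04%) but not for the fibrillar class.

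No single collagen gene passed the test. Of 35 members tested, edgeR's quasi-likelihood test called 0 higher and 0 lower in KO at an adjusted p of 0.05, where it called 1.12% of all genes higher and 0.336% lower (1.45% in all). At an unadjusted p of 0.05, 12 members were lower and 0 higher, where 6.33% of all genes were lower and 8.29% higher (14.6% in all). DESeq2 called 3 lower (Col6a3, Col6a1 and Col12a1, where it called 1.52% of all genes lower) and limma-voom 1 (Col6a3, where it called 0.355%). At an unadjusted p of 0.05 these tools put 6.77% and 6.53% of all genes lower. The difference was negative for 27 members and positive for 8, against 49.0% negative over all genes. The median log2 difference was -0.20 over members and 0.01 over all genes. In 11 members every KO library lay below every WT library, and in 0 above. Over all genes the KO libraries lay below in 9.40% and above in 10.3%, so in 19.7% the groups did not overlap.

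**Figure D2:**
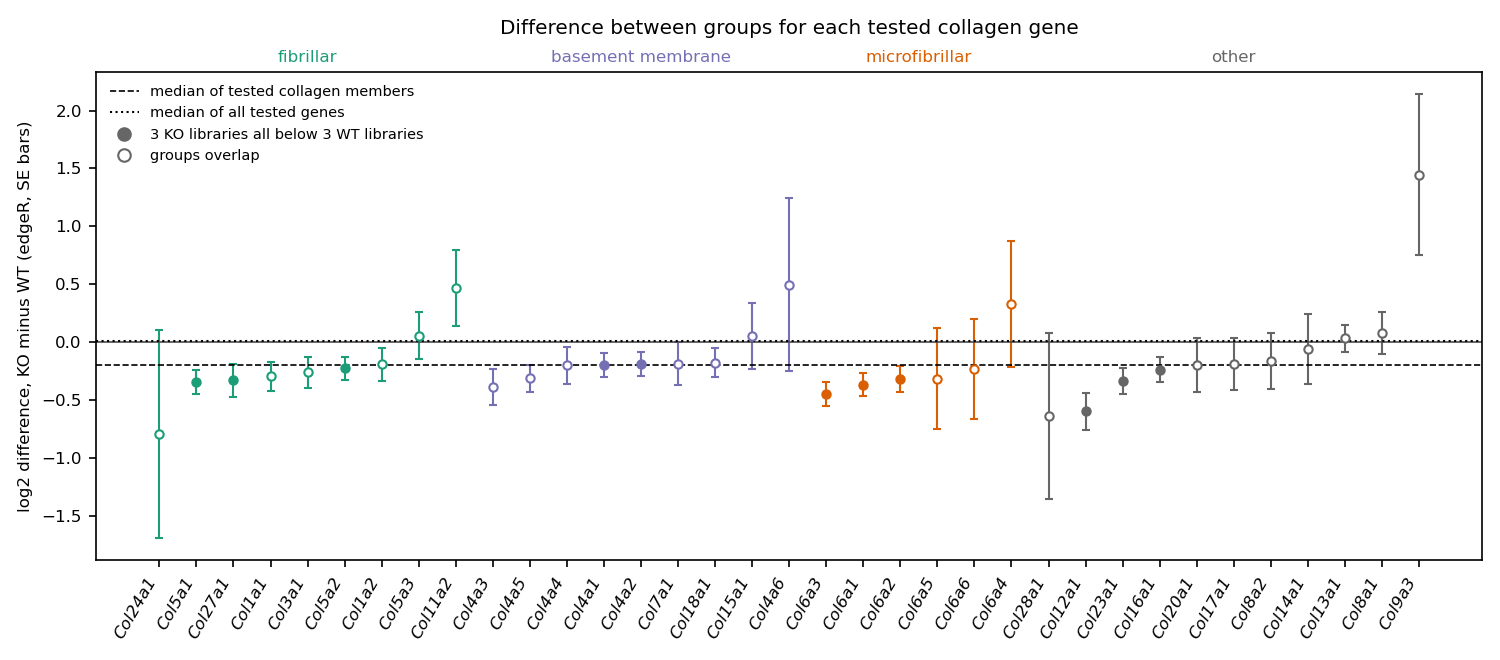
Log2 difference (KO minus WT, edgeR) with its SE for each tested member, grouped and coloured by class. Filled points mark members whose 3 KO libraries were all below the 3 WT libraries, and dashed and dotted lines the medians of members and of all tested genes. Of 35 members, 27 lie below 0, with Col12a1 at -0.60 and Col6a3 at -0.45, and members with few reads such as Col9a3 (1.45) have the wide bars.

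Fibrillar chains were led by types III and I, the bulk of the tensile fibres. Col3a1 stood at 1320, 1096 and 1350 CPM in WT lungs (here and below in order of replicate) and at 865.6, 1032 and 1247 CPM in KO lungs. Col1a1 (chromosome 11, 94936224 to 94953042), the larger part of type I, stood at 563, 479.6 and 570.3 CPM in WT and 372.5, 437.2 and 507.5 CPM in KO. Col1a2, its partner chain, stood at 972.1, 814.7 and 959.7 CPM in WT and 614.3, 841.7 and 949.4 CPM in KO. In all 3 the groups overlapped, KO replicate 1 was the lowest library, and KO replicate 3 lay within the WT range. None passed edgeR's test: the log2 differences were -0.26 ± 0.14 for Col3a1 (adjusted p = 0.407), -0.29 ± 0.13 for Col1a1 (adjusted p = 0.295) and -0.19 ± 0.15 for Col1a2 (adjusted p = 0.591).

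The type V chains, which are built into type I fibres and limit their width, were more even between libraries. Col5a1 stood at 179.6, 159.8 and 172.4 CPM in WT and 120.3, 138.8 and 144.3 CPM in KO. Col5a2 stood at 199.2, 213.1 and 195.2 CPM in WT and 166.5, 168.9 and 184.9 CPM in KO. All KO libraries lay below all WT libraries for both, with log2 differences of -0.34 ± 0.11 (edgeR adjusted p = 0.141) and -0.22 ± 0.10 (edgeR adjusted p = 0.316). Col27a1, a fibrillar chain of cartilage and other tissues, did the same at a lower level, with 43.7, 37.6 and 42.4 CPM in WT and 32.2, 36.1 and 30.2 CPM in KO (log2 difference -0.33 ± 0.14, edgeR adjusted p = 0.290). Among the 9 fibrillar chains tested the difference was negative in 7, with a median of -0.26, and 4 were lower at an unadjusted p of 0.05, against 6.33% of all genes. That median was -0.165 without KO replicate 1 and -0.10 with an offset for gene length and GC content, described below. Col5a3 (0.06 ± 0.20) and Col11a2 (0.47 ± 0.33) had positive values.

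Basement membrane chains held the highest levels of the family. Col4a1 stood at 2582, 2433 and 2491 CPM in WT and 2233, 2100 and 2235 CPM in KO. Col4a2 stood at 1709, 1635 and 1689 CPM in WT and 1570, 1381 and 1462 CPM in KO. These chains together form the common network of all basement membranes, and in both every KO library was below every WT library. Their log2 differences were equal to 2 decimals, -0.19 ± 0.10 each, and neither passed edgeR's test (adjusted p = 0.415 and 0.427).

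Col4a3, Col4a4 and Col4a5 form the network of specialised membranes such as those of the alveolus and the glomerulus. Col4a3 stood at 319.1, 419.5 and 273.4 CPM in WT and 301.7, 254.5 and 219.4 CPM in KO (log2 difference -0.38 ± 0.15, edgeR adjusted p = 0.257). Col4a5 stood at 183.8, 180.9 and 145.1 CPM in WT and 146.5, 137.3 and 127.1 CPM in KO (log2 difference -0.31 ± 0.12, edgeR adjusted p = 0.221). Col4a4 had 209.3, 241.6 and 172.4 CPM in WT and 228.6, 154.1 and 159.9 CPM in KO. For all 3 the groups overlapped, the highest library was a WT one, and the difference of Col4a4 was -0.20 ± 0.16 (edgeR adjusted p = 0.606). Of the exonic bases of Col4a3, 563 also lie in a gene on the opposite strand, C430014B12Rik, so its reads cannot be fully told apart. Col18a1, the source of endostatin, had a difference of -0.18 ± 0.13, Col7a1, of the anchoring fibrils, of -0.18 ± 0.18, and Col15a1 of 0.05 ± 0.29. Among all 9 basement membrane chains the median was -0.19 (-0.02 with the length and GC offset), with 7 negative, 2 positive and 2 lower at an unadjusted p of 0.05, against 6.33% of all genes.

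Type VI chains had a median of -0.32 over 6 genes, the lowest of the classes with all libraries. Without KO replicate 3 it was -0.30 and that of the fibrillar chains -0.33, and with the length and GC offset it was -0.17. Col6a1, Col6a2 and Col6a3 are the chains of the common type VI microfibril. Col6a3 stood at 397.1, 430.1 and 437.9 CPM in WT and 337.7, 294.5 and 296.5 CPM in KO. Col6a1 stood at 463.1, 423.6 and 464.8 CPM in WT and 338.2, 353.6 and 357.9 CPM in KO. Col6a2 stood at 390.1, 335.8 and 420.3 CPM in WT and 294.7, 290.5 and 333 CPM in KO. In all 3 genes every KO library was below every WT library. Col6a3 came nearest of all members to the threshold, at a log2 difference of -0.45 ± 0.10 (ratio 0.734, edgeR adjusted p = 0.0501), followed in this class by Col6a1 at -0.36 ± 0.10 (edgeR adjusted p = 0.0913) and Col6a2 at -0.32 ± 0.11 (edgeR adjusted p = 0.194). Col6a3 passed under 8 of the alternatives, among them DESeq2 (adjusted p = 0.00184) and edgeR without KO replicate 1 (adjusted p = 0.0129), and its log2 difference was between -0.52 and -0.41 with each library left out. Col6a4, Col6a5 and Col6a6, later chains clustered on chromosome 9, were sparse, and their differences (0.33 ± 0.54, -0.31 ± 0.43 and -0.23 ± 0.43) were within their error.

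**Figure D3:**
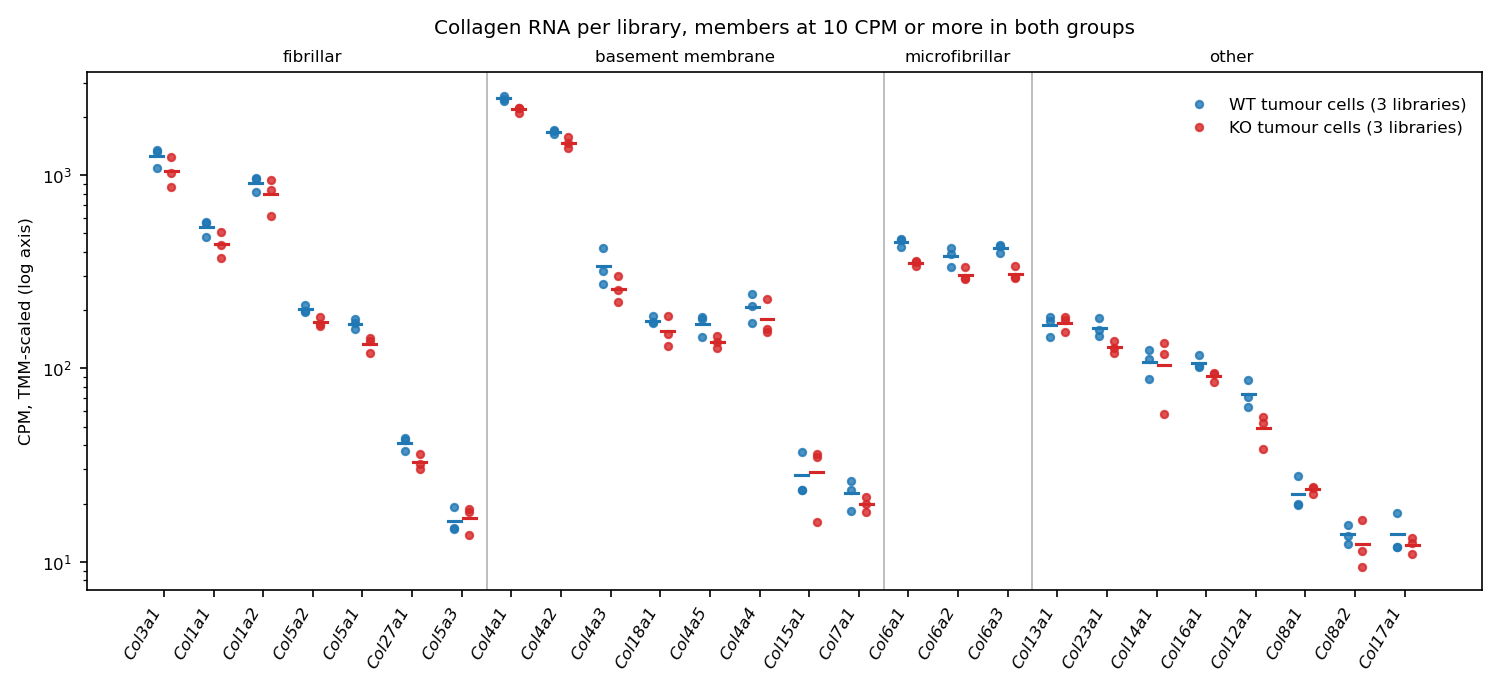
CPM in each library, on a log axis, of the 26 members at 10 CPM or more in both groups, ordered by class. Points are libraries (blue WT, red KO) and short lines group means. The KO points of Col6a1, Col6a3, Col5a1, Col4a1 and Col12a1 lie below all WT points, while those of Col1a1, Col1a2 and Col3a1 overlap them.

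The other members are fibril-associated, transmembrane, short-chain and further chains. Col12a1, which bridges type I fibres and tissue under load, had the largest negative difference among members above 10 CPM. It stood at 87.4, 71.5 and 62.8 CPM in WT and 52.3, 56.0 and 38.5 CPM in KO, with no overlap. The log2 difference was -0.60 ± 0.16 (ratio 0.662, edgeR adjusted p = 0.0881), and DESeq2 called it lower (adjusted p = 0.0203). Col23a1, a transmembrane collagen, stood at 147.1, 182.3 and 157.9 CPM in WT and 119.9, 127.1 and 139.3 CPM in KO, again without overlap (log2 difference -0.34 ± 0.11, edgeR adjusted p = 0.172). Col13a1, another transmembrane chain, stood at 175.8, 145 and 184.8 CPM in WT and 177.6, 155 and 185.2 CPM in KO, so that the groups matched closely (0.04 ± 0.12, edgeR adjusted p = 0.933). Of the short-chain network pair, Col8a1 had 0.08 ± 0.18 and Col8a2 -0.16 ± 0.24. Col16a1, a fibril-associated chain, stood at 117.4, 103 and 101.5 CPM in WT and 85.3, 93.1 and 95.1 CPM in KO, the only further member of this class without overlap (-0.24 ± 0.11, edgeR adjusted p = 0.337). Col14a1 (-0.06 ± 0.30), Col17a1 of the hemidesmosome (-0.19 ± 0.23), Col20a1 (-0.20 ± 0.24) and Col28a1 (-0.64 ± 0.72) were within or near their errors. Over the 11 genes the median was -0.19, with 8 negative and 3 lower at an unadjusted p of 0.05, against 6.33% of all genes. The median was -0.07 without WT replicate 1, -0.11 without KO replicate 1 and -0.07 with the length and GC offset.

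The lowest members rest on few reads. Col2a1, the cartilage fibre chain, had 8, 29 and 3 counts in WT and 2, 2 and 43 in KO, summing to 87, and did not enter the test. Col24a1 had 14, 3 and 35 counts in WT and 13, 6 and 12 in KO, summing to 83. Just outside the limit of 60, Col11a1 summed to 58. The other collagen genes left out were Col25a1 and Col26a1 (34 counts each), Col9a1 (25), Col9a2 (23), Col22a1 (13), Col10a1 and Col19a1 (11 each). Col9a3 had 5, 23 and 18 counts in WT and 31, 71 and 21 in KO (log2 difference 1.45 ± 0.70, edgeR adjusted p = 0.358), and 234 of its exonic bases also lie in Tcfl5 on the opposite strand. Col4a6 had 3, 34 and 20 counts in WT and 25, 23 and 31 in KO.

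No difference between groups was detectable in the ratio of chains that assemble together. Per exonic length, Col1a1 to Col1a2 was 1.11 in WT and 1.05 in KO, with log2 ratios of 0.15 ± 0.02 and 0.06 ± 0.12 (exact permutation p = 0.4, n = 3 each). These lengths were 6563 bases for Col1a1 and 12426 for Col1a2, the union of all annotated exons. Without them the WT means were 537.6 and 915.5 CPM, so the ratio itself depends on the lengths. Col4a1 to Col4a2 was 1.32 in both groups, with log2 ratios of 0.40 ± 0.02 and 0.40 ± 0.06 (exact permutation p = 1.0). Col6a3 to Col6a1 had log2 ratios of -1.54 in WT and -1.63 in KO (exact permutation p = 0.5). Among the 8 pairs compared no exact p was below 0.3, and 0.1 was the smallest possible, so this test could not have called a pair.

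The classes also differed in spread between libraries, given here without a test. Among members of at least 10 CPM, the median coefficient of variation over KO libraries was 15.4% for 7 fibrillar chains, 12.5% for 8 basement membrane chains, 7.64% for 3 type VI chains and 9.20% for 8 others, against 10.97% for all 9775 such genes. In WT these were 9.38%, 14.7%, 5.17%, 14.6% and 10.7%, so that the order of the classes was not the same in both groups. KO replicate 1 was the lowest KO library in 5 of 7 fibrillar chains, in 2 of 8 basement membrane chains and in 13 of 26 members in all.

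Gene length moved with the difference between groups. Exons of members sum to a median of 7542.5 bases, against 4234 over all tested genes, and to a GC content of 56.1% against 50.2%. Over all tested genes the median log2 difference was 0.16 for exonic lengths up to 2575 bases, 0.05 for 2576 to 4234, -0.02 for 4235 to 6621 and -0.10 from 6622 bases up. Members fell into these bands as 0, 1, 10 and 24. With an offset for length and GC content in each library, the members' median was -0.07 against 0.03 over all genes, 24 were negative and 11 positive, and 4 were lower and 2 higher at an unadjusted p of 0.05. In that fit 45.4% of all genes were negative, 4.19% were lower at an unadjusted p of 0.05 and 0.112% at an adjusted p of 0.05, with 0 members. The log2 difference became -0.26 for Col6a3 (edgeR adjusted p = 0.295), -0.40 for Col12a1 (edgeR adjusted p = 0.2999) and -0.06 for Col4a1 (edgeR adjusted p = 0.881). Length and composition entered that fit together, and their part in the lower values was not tested beyond it.

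**Figure D4:**
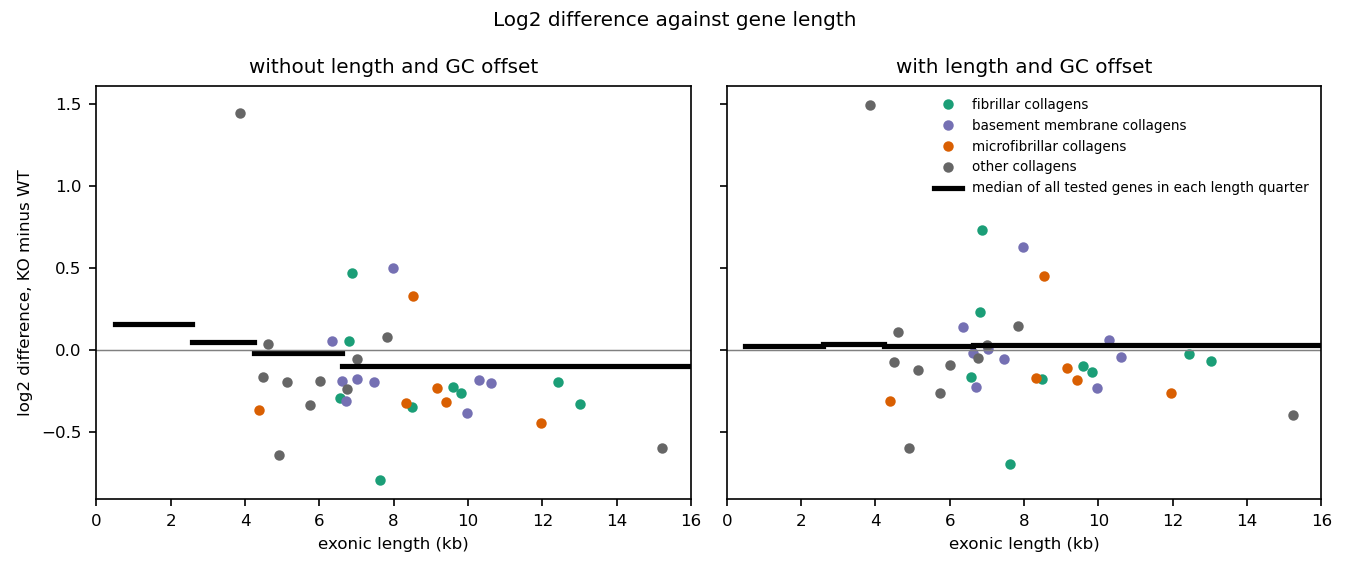
Log2 difference (KO minus WT) of the tested members against exonic length in kilobases, coloured by class, without (left) and with (right) the length and GC offset. Black lines are the medians of all tested genes in each length band, which go from 0.16 to -0.10 on the left, with 24 members in the band from 6622 bases up, and lie at 0.02 to 0.04 on the right.

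Marker genes of collagen-making and other cells are given beside these values. Over all genes 49.0% were negative, and the test called 0.336% lower and 1.12% higher. Of the pericyte markers, all 8 were negative (median -0.40), Notch3 (log2 difference -0.60, edgeR adjusted p = 0.0161) and Pdgfrb (-0.63, edgeR adjusted p = 0.0347) fell, and their summed level was 884.6 to 964.9 CPM in WT and 573.7 to 714.2 CPM in KO. Of 10 fibroblast markers, 6 were negative and 4 positive, from -0.52 to 0.59, with a median of -0.05. Itga8 (-0.52, edgeR adjusted p = 0.0402) and Pdgfra (-0.46, edgeR adjusted p = 0.0485) fell, and the sums of the 10 were 5167 to 5769.5 and 4388 to 4909.5 CPM. Of 10 smooth muscle and myofibroblast markers 0 passed, 9 were negative (median -0.33) and the sums overlapped (600.8 to 894.8 and 476.2 to 622.7 CPM). All 8 leukocyte markers were positive (median 0.40), Coro1a (0.60, edgeR adjusted p = 0.0402) and Cd53 (0.56, edgeR adjusted p = 0.0463) rose, and the sums were 5034 to 5863 CPM in WT and 6331 to 7271 CPM in KO. Sums overlapped for endothelium (10 markers, median -0.10), alveolar type 1 cells (8, median -0.10), alveolar type 2 cells (7, median -0.11), mesothelium (4 of 6 tested, median 0.74), atrial muscle (5 of 7 tested, median 0.00, Nppa at 0 in every library) and carcinoma and epithelium (8 of 9 tested, median -0.03), with 0 called in each. Cartilage markers, 3 of 11 tested, summed to 69.3 to 75.1 and 54.2 to 66.4 CPM with Matn1 and Ucma at 0, and Matn4 alone made up 63.7 to 72.4 CPM of this in WT and 48.0 to 56.3 CPM in KO. With the length and GC offset none of these 6 marker calls held (edgeR adjusted p = 0.0529 to 0.181). With replicate number added to that fit as a block, Notch3, Pdgfrb, Itga8 and Coro1a passed (edgeR adjusted p = 0.00944 to 0.0464). Pdgfra (edgeR adjusted p = 0.156) and Cd53 (edgeR adjusted p = 0.0637) did not. Each of the 6 calls was lost without WT replicate 1, WT replicate 2, KO replicate 2 or KO replicate 3, and those of Pdgfra and Coro1a without WT replicate 3. Cd53 did not pass with limma-voom, RLE, upper quartile scaling or robust=FALSE either (adjusted p = 0.0504 to 0.0548), nor Pdgfra with library totals (edgeR adjusted p = 0.0557). The part of each cell type in the collagen values was not tested, and a larger share of leukocyte RNA in KO lungs cannot be told apart from less collagen RNA.

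Genes that fold, modify and export collagen chains had differences nearer 0 than the chains, a contrast that was not tested. Their exons summed to 1772 (Crtap) to 6765 bases (Plod1), against 3853 to 15228 in members. Over all genes the median fell with exonic length, as given above, and the part of length in this contrast was not tested. Of 21 genes of collagen folding and modification 0 passed the test, against 1.45% of all genes. Of the 21, 13 were negative, against 49.0%, and the median was -0.02. The smallest p values were those of Fkbp14, a folding enzyme of the endoplasmic reticulum, at -0.60 ± 0.20 (edgeR adjusted p = 0.166), and P3h2, which hydroxylates basement membrane collagens, at -0.47 ± 0.24 (edgeR adjusted p = 0.404). The list of processing and cross-linking genes also held the matrix proteins Sparc, Fn1 and Tnxb and the proteoglycans Bgn, Dcn, Lum and Fmod. Its tested genes had a median of -0.28, with 15 of 19 negative, against 49.0% of all genes. At an unadjusted p of 0.05, 8 were lower, against 6.33% of all genes, and 0 were called, against 1.45%. Tnxb, a matrix glycoprotein that binds fibres, had -0.42 ± 0.12 (edgeR adjusted p = 0.0958), and the proteoglycan Bgn -0.37 ± 0.10 (edgeR adjusted p = 0.1002).

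Among 15 genes of collagen breakdown and its inhibitors, Mmp2, the gelatinase that cleaves denatured collagen and type IV collagen, fell. It stood at 257.9, 251.7 and 244.5 CPM in WT and 185.8, 181.3 and 193.8 CPM in KO (log2 difference -0.43 ± 0.10, edgeR adjusted p = 0.0451). Mmp2 was the only gene of this list called, where the test called 0.336% of all genes lower. The list's median was 0.10, with 7 negative and 8 positive, against 49.0% negative over all genes. Of 12 collagen receptors tested, Lair1, an inhibitory receptor of leukocytes that binds collagen, rose from 9.07, 10.7 and 14.9 CPM to 17.96, 28.4 and 26.9 CPM (log2 difference 1.08 ± 0.24, edgeR adjusted p = 0.0413). It was the only receptor called, where the test called 1.12% of all genes higher. Of the 12, 9 were negative (median -0.21), against 49.0% of all genes. Of 15 genes of TGF-beta and fibrosis signalling 0 passed, 12 were negative, against 49.0% of all genes, and the median was -0.07. There Postn had -0.40 ± 0.10 (edgeR adjusted p = 0.0720) and Tgfb2 -0.35 ± 0.14 (edgeR adjusted p = 0.242).

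Of 16 genes of the non-collagen basement membrane, 15 had a negative difference (median -0.31), against 49.0% of all genes. At an unadjusted p of 0.05, 11 were lower, against 6.33% of all genes, and 3 passed the test, against 0.336%, all of them laminin chains. Lama4, of vessel basement membranes, fell from 206.9, 218.3 and 216.3 CPM in WT to 156.1, 167.4 and 135.7 CPM in KO (log2 difference -0.48 ± 0.11, edgeR adjusted p = 0.0428). Lamc1, shared by most laminins, fell from 520.7, 511.1 and 543.8 to 405.6, 374.2 and 379.5 CPM (-0.44 ± 0.10, edgeR adjusted p = 0.0433). Lama2 fell from 155.7, 154.8 and 146.0 to 118.7, 112.4 and 97.4 CPM (-0.47 ± 0.11, edgeR adjusted p = 0.0451). Exons of Lama4 sum to 12068 bases, of Lamc1 to 8272 and of Lama2 to 16338. All 3 lie in the length band from 6622 bases up, where the median over all genes was -0.10. The part of length in the values of this list, and of the other lists, was not tested. With the length and GC offset Mmp2 and Lair1 passed (edgeR adjusted p = 0.0395 each) and the laminins did not (0.164 for Lama4, 0.158 for Lamc1 and 0.245 for Lama2). Leaving out any single WT library, KO replicate 2 or KO replicate 3 left 0 of the 4 lower calls, and leaving out KO replicate 1 gave 9. Lair1 did not pass without WT replicate 1, WT replicate 2, KO replicate 2 or KO replicate 3 (edgeR adjusted p = 0.151 to 0.206).

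**Figure D5:**
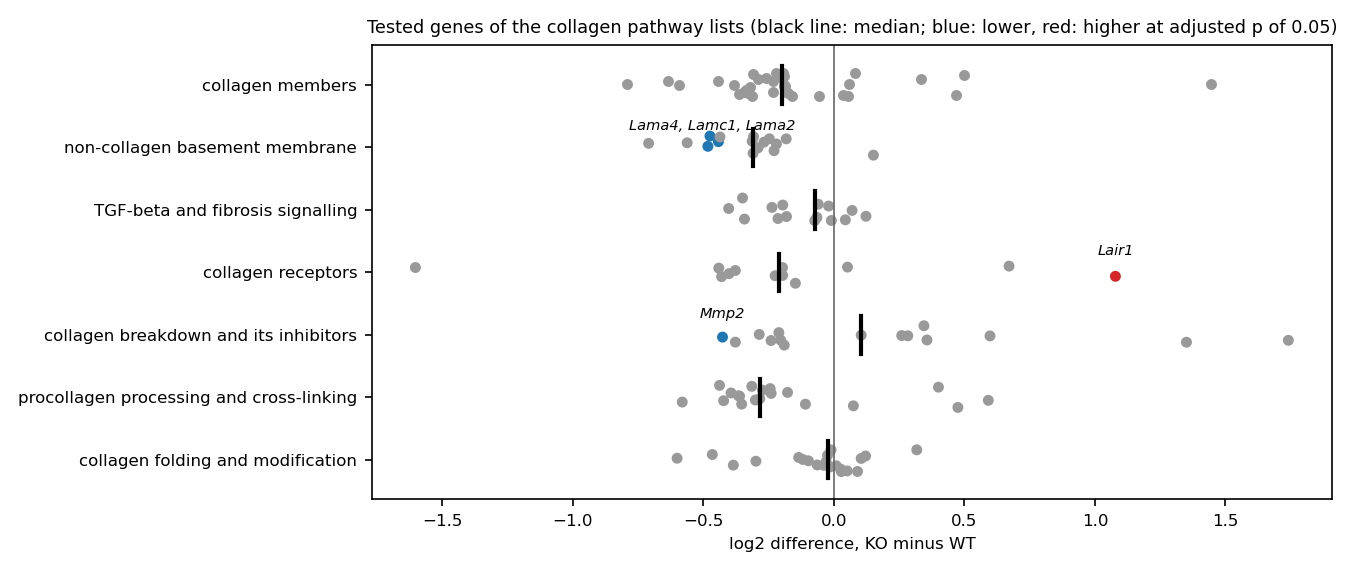
Log2 difference (KO minus WT, edgeR) of each tested gene in 6 lists around collagen and in the collagen members, with genes that passed the test in blue (lower) or red (higher), the rest in grey and the median as a black line. Vertical scatter within a list has no meaning. The medians of the lists run from -0.31 for the non-collagen basement membrane to 0.10 for breakdown and its inhibitors.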

How the data were processed

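Libraries of whole lung RNA, 3 per group, were compared. The deposited tables hold raw read counts for each Ensembl gene, aligned by the authors to mm10 (GRCm38) with STAR 2.5 and counted with HTSeq 0.6.1, per the labels' protocols. No source used here gives the annotation release, strand setting or counting mode. Symbols, lengths and coordinates came from GENCODE (34490 identifiers matched, 785 did not), and promoters from RefSeq. Counts were tested with edgeR 4.0.16 in R 4.3.3 (TMM, filterByExpr with a minimum count of 10, glmQLFit with robust=TRUE, group alone, KO minus WT), adjusted by Benjamini-Hochberg over all 15191 genes tested, two-sided. Errors are SE of log2 differences or SD over 3 libraries. CPM use library sizes scaled by TMM, except the CPM that a count of 0 allows. Alternatives were DESeq2 1.42.0, limma-voom (limma 3.58.1), other scalings and filters, robust=FALSE, a threshold of 0.1, a replicate block, a length and GC offset (splines with 5 degrees of freedom) and each library left out. The script was tested on simulated data (3 simulations with 200 changed genes each). It recovered 27.2% of 1.5-fold, 72.3% of 2-fold and 87.7% of 3-fold changes, and 5.91% of its calls were false. Changed genes were drawn only from those above a minimum mean level, so the recovery does not cover sparse genes. The simulated libraries were independent and had no trend with gene length, so the rates do not cover such a trend. Named genes were Col1a1, Col4a1, Col6a3, the members past the test, per class the 2 highest per length and the 2 with the smallest p, and chain pairs. From pathway lists they were the genes past the test or else the 2 with the smallest p. Marker genes that passed the test were named after their values were seen. Members and lists were chosen with earlier results of these data known. No pair of libraries agreed within sampling noise (chi-square per degree of freedom 15.36 to 55.68). The labels do not state that libraries came from separate animals, so the p-values rest on the spread between samples that may be technical replicates.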

Additional observations from a re-analysis of the deposited data

How the results depend on the processing

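Collagens called lower by edgeR (0) became 3 with DESeq2, 1 with limma-voom, 1 with a filter of 1 CPM in 3 libraries, 3 with no filter, 1 with RLE and 1 with upper quartile scaling, 3 at a threshold of 0.1, and 0 to 1 with a library left out. Collagens called higher stayed 0 under each. Of 594 member values under alternatives, 561 kept direction and side of the threshold, 13 newly passed (Col6a3 8, Col12a1 3, Col4a3 1, Col6a1 1) and 20 turned direction without passing. With the offset these were Col7a1 (0.0646, and 0.0812 with the replicate block), Col14a1 (0.0348) and Col18a1 (0.0078). With a library left out, values ran from -0.0315 to 0.19 for Col5a3, -0.0073 to 0.26 for Col8a1, -0.0632 to 0.11 for Col13a1, -0.29 to 0.23 for Col14a1, -0.14 to 0.34 for Col15a1, -0.29 to 0.03 for Col17a1 and -1.31 to 0.22 for Col24a1. Genes called higher (170) became 367 with DESeq2, 105 with the length and GC offset, 578 with no filter, 315 at 0.1, and 22 to 404 with a library left out, and those called lower (51) became 231, 17, 225, 160, and 2 to 174. Pathway genes called lower (4) became 16 with DESeq2, 1 with the offset, 1 with the offset and replicate block, 15 with no filter, 2 with robust=FALSE, 10 at 0.1, and 0 to 9 with a library left out, and those called higher (1) became 2 with DESeq2, 4 with no filter, and 0 to 3. The members' median of -0.20 was -0.07 with the offset. The cause was not tested. Same-numbered libraries correlated at 0.027, -0.019 and 0.0091 in their deviations from the group means, against -0.057 to 0.043 for differently numbered ones. Whether equal replicate numbers pair the samples was not decided, since a correlation over all genes can miss pairing that moves only some. With the replicate block, 309 genes were higher and 96 lower, 2 collagens (Col6a3 and Col12a1) and 7 pathway genes lower. DESeq2 gave no adjusted p for 589 genes. Depth limits the sparse members, such as Col24a1 (SE 0.90) and Col9a3 (SE 0.70).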

Other observations

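The fibril-associated chain Col14a1 and the basement membrane zone chain Col15a1, chosen after their values were seen, varied more between KO libraries than between groups. Col14a1 stood at 111.4, 88.0 and 124 CPM in WT and 57.8, 134.7 and 118.3 CPM in KO lungs, and Col15a1 at 23.6, 23.6 and 37.0 CPM and 16.03, 36.2 and 35.0 CPM. KO replicate 1 was also the lowest library for the fibroblast proteoglycans Dcn (81.9, 54.6 and 118.5 CPM in WT, 46.9, 137.2 and 170.0 CPM in KO) and Lum (14.6, 8.63 and 15.2 CPM in WT, 6.44, 26.9 and 24.5 CPM in KO). Dcn and Lum were named after their values were seen. Bgn was also lowest there (890.2 CPM), but Fmod was lower in KO replicate 3 (14.8 CPM) than in KO replicate 1 (15.4 CPM). The summed fibroblast markers were lower in KO replicate 2 (4388 CPM) than in KO replicate 1 (4633 CPM). The mesothelial gene Msln stood at 0.515 CPM in KO replicate 1, against 2.95 to 13.5 CPM in the other 5 libraries.

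Of the cartilage genes, Col2a1 had 43 reads in KO replicate 3 and 29 in WT replicate 2. KO replicate 3 also had the most reads of Cnmd (21), Hapln1 (13), Snorc (10) and Epyc (6), named after their values were seen, but not of Comp (15, against 43 in WT replicate 3), Matn4 or Matn3. The cartilage collagens Col9a1, Col9a2 and Col11a1 had 0, 4 and 3 reads there, against 18, 11 and 23 in WT replicate 2. The part of adjoining cartilage in these libraries was not tested.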
